A study of Homo sapiens with 6 samples.

Results

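The genes that carry a cell from G1 to the start of DNA synthesis were followed in H-INV versus L-INV cells of the lung cancer line H460. The group held 10 genes, taken by symbol from the array's annotation: the D-type cyclins CCND1, CCND2 and CCND3, their kinases CDK4 and CDK6, cyclin E1 (CCNE1), and the inhibitors CDKN1B (p27), CDKN1C (p57), CDKN2B (p15) and CDKN2C (p18). Of these, 9 had a probe, 14 probes in all among the 47322 of the array. CDKN2C had no probe annotated to it here and was not analysed. The data show 6 of the 9 genes above background, and all 6 passed the test, with 3 up and 3 down in H-INV cells. Among all 10279 genes tested, 58.0% passed, 32.6% higher and 25.4% lower, so the count itself is not a result about these genes. CCND3 rose 3.95-fold, whereas the other 5 moved by less than 2-fold in either direction.

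H460 cells derive from a human large cell carcinoma of the lung and are kept as an established line. In a Boyden chamber whose membrane carried basement membrane extract, H-INV cells were those that crossed and L-INV cells those that stayed on top. The sample labels give 48 h and 6 rounds of selection, while the methods give another duration and another number of rounds. Both groups came from the same parental line, and according to the supplement frozen stocks went through 1 more selection and then grew without glucose until RNA extraction. Total RNA of 3 sets of H-INV cells and 3 sets of L-INV cells was hybridised to Illumina HT-12 v4 arrays, 1 array per set. Whether the sets were selected separately is not stated, so the p-values reflect how far these sets differ from each other, which may be technical variation.

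All 6 arrays lay on 1 BeadChip, H-INV at positions D to F and L-INV at positions A to C, so position and subpopulation cannot be told apart. Each array had 16368 to 16985 probes above background (detection p under 0.01). Over the genes tested, arrays correlated at 0.995 to 0.996 within a group and at 0.920 to 0.927 between groups. The epithelial keratins KRT8, KRT18 and KRT19 were above background on all 6 arrays, CDH1 was on none, and EPCAM was only on the 3 L-INV arrays. PTPRC, CD3E and LYZ of white blood cells and PECAM1, VWF and CDH5 of endothelium were above background on no array, whereas CD14 was on all 6 and the globin HBA1 on the 3 L-INV arrays. The summed linear level of the 5 epithelial markers was 1882 to 1951 on H-INV arrays and 7750 to 7821 on L-INV arrays, the L-INV sum mostly from KRT19. That of the 5 fibroblast markers was 1320 to 1667 on H-INV arrays and 719 to 770.3 on L-INV arrays, mostly from COL3A1, while COL1A2 and DCN were above background on no array, COL1A1 on 2 H-INV arrays and PDGFRB on 2 L-INV arrays. The part of these marker levels in the results was not tested. In RNA from bulk cells, fewer cells that express a gene and less RNA of it per cell cannot be told apart.

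D-type cyclins are made in response to growth signals and bind CDK4 or CDK6. The active kinases phosphorylate the retinoblastoma protein, which then lets go of E2F transcription factors, and cyclin E with CDK2 completes the step into S phase. Inhibitors of the INK4 family (p15, p18) bind CDK4 and CDK6 themselves, while those of the CIP/KIP family (p21, p27, p57) bind cyclin-kinase complexes, most strongly those of CDK2. Many tumours raise a D-type cyclin or lose an INK4 inhibitor.

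The promoters of the measured genes show which common binding words they do and do not share. RefSeq windows of 300 bases on GRCh38.p14, running 250 bases before to 50 after a transcription start, were found for 7 of the 10 genes (12 windows). The windows of CDK4 (chr12:57752261-57752560, minus strand), of CCND3 (chr6:41941759-41942058, minus strand, the richest in G and C of its 3 windows), of CCNE1 (chr19:29811741-29812040, plus strand), of CDK6 (chr7:92836524-92836823, minus strand, the first of 2) and of CDKN1B (chr12:12717118-12717417, plus strand) are printed below from 5′ to 3′, the 3 genes that rose before the 2 that fell. Capitals mark the E-box CACGTG, the GC box GGGCGG or its complement CCGCCC, and the CCAAT box or its complement ATTGG.
CDK4: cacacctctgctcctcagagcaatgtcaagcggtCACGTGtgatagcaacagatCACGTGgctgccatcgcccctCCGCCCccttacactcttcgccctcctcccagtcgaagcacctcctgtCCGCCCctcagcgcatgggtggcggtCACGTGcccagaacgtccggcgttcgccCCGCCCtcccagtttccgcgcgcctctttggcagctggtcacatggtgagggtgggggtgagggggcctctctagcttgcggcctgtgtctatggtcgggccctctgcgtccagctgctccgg
CCND3: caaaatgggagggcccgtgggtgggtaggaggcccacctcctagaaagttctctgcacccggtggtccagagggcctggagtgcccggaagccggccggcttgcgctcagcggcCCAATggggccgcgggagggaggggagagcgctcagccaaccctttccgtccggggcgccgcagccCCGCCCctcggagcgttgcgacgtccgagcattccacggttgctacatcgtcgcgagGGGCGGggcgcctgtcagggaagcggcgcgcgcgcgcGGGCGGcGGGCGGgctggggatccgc
CCNE1: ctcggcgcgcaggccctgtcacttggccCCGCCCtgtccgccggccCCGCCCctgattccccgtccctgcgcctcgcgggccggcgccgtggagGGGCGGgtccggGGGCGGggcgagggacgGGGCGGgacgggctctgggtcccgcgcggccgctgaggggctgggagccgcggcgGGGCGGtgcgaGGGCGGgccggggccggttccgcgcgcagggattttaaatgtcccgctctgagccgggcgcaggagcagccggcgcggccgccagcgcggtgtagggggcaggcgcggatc
CDK6: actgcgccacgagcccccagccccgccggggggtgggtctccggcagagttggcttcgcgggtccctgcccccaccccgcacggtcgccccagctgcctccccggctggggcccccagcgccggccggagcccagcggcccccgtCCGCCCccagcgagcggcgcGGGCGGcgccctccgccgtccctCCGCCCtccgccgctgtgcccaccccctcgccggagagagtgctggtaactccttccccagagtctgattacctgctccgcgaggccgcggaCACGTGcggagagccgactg
CDKN1B: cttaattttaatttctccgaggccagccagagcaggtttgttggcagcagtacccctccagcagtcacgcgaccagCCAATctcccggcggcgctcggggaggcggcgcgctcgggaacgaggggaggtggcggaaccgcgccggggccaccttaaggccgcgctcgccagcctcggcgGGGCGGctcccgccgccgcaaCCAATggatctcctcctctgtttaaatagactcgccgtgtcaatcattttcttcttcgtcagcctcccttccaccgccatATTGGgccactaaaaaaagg

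The E-box CACGTG, the word bound by MYC with its partner MAX, stood 3 times in the CDK4 window, beginning 216, 196 and 101 bases before the start. Of 35116 RefSeq windows of this length, 7.26% held it at least once and 0.094% at least 3 times. The cut at 3 equals the count of the CDK4 window itself, and such a share was computed for this word alone. It stood once in the printed CDK6 window, 30 bases after the start, and in none of the windows of CCND3, CCNE1 and CDKN1B. Among windows not printed, it also stood in windows of CDKN2C, a gene without a probe here, 220 and 69 bases before their starts. GC boxes, the word of SP1 and related factors, were counted on both strands. The CCNE1 window held 7, the printed CCND3 window 4, those of CDK4 and CDK6 3 each and that of CDKN1B 1. The windows not printed held 5 and 0 for CCND3 and 0 for CDK6. Of all windows, 44.95% held at least 1 GC box, and the share with higher counts was not computed. CDKN1B carried 3 CCAAT boxes, the word of NF-Y, and the printed window of CCND3 held 1. Windows not printed with a CCAAT box were 1 of CCND3 and 1 of CDKN2C. Of all windows, 34.61% held at least 1 CCAAT box. Within the 5 printed windows no match overlapped another. The E2F words TTTCCCGC, TTTGGCGC, TTTCGCGC and TTTGCCGC, searched on both strands and present in 3.31% of all windows, were in none of the 12 windows, which says only that these letters are not there. A match is a description of the sequence and not a measured binding site.

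Cyclin D3 was the gene of this group that differed most. Its single probe read 12.25, 12.36 and 12.30 on the H-INV arrays versus 10.39, 10.17 and 10.41 on the L-INV arrays, as log2 normalized intensity. The arrays of the 2 subpopulations did not overlap, and the gap between them was wider than the spread within either one. The means were 12.30 ± 0.0539 and 10.32 ± 0.132 (SD, n = 3 each), a log2 fold change of 1.98 (SE 0.08) or 3.95-fold (95% interval 3.46 to 4.50, limma, adjusted p = 2.29e-07). Of all 10279 genes tested, 3.03% had a change at least as large in either direction.

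Cyclin D1, the D-type cyclin most often amplified in human tumours, moved the other way. It too had a single probe. CCND1 read 10.733, 10.744 and 10.613 in H-INV cells versus 11.061, 10.998 and 11.056 in L-INV cells, so each H-INV array lay below each L-INV array. It was 1.27-fold lower (log2 fold change -0.34, SE 0.07, limma, adjusted p = 0.00260), and 44.0% of genes changed at least as much. The third D-type cyclin, CCND2, was not above background on any array with either of its 2 probes. Their scanner intensities lay between 101 and 140, and the lowest detection p was 0.0506. Expression of CCND2 was therefore not detectable at this sensitivity in either subpopulation. Levels of different probes cannot be set against each other, so the data do not say which D-type cyclin was the most abundant.

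The 2 kinases partnered by D-type cyclins differed in direction as well. CDK4 read 11.69, 11.76 and 11.71 in H-INV cells versus 11.32, 11.25 and 11.31 in L-INV cells. It was 1.34-fold higher (log2 fold change 0.43, SE 0.06, 95% interval 0.28 to 0.57, limma, adjusted p = 0.000518). CDK6, its close relative, read 10.49, 10.46 and 10.52 in H-INV cells versus 11.29, 11.18 and 10.95 in L-INV cells. Its H-INV arrays were closely spaced, while its L-INV arrays spread more widely without reaching them. CDK6 was 1.57-fold lower (log2 fold change -0.65, SE 0.09, 95% interval -0.86 to -0.44, limma, adjusted p = 0.000379). Each kinase had a single probe.

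Cyclin E1, the partner of CDK2, was modestly higher. The probe that measured it read 8.04, 8.10 and 8.03 in H-INV cells versus 7.75, 7.51 and 7.76 in L-INV cells. CCNE1 rose 1.30-fold (log2 fold change 0.38, SE 0.08, limma, adjusted p = 0.00428) and its normalized values did not overlap. Before normalization they did, since the scanner read 340, 365 and 364 on H-INV arrays versus 355, 286 and 302 on L-INV arrays. The L-INV array with the reading of 355 also had the highest median intensity of all probes, 134. The other CCNE1 probe was above background on no array. For the other 5 genes the scanner intensities of the 2 subpopulations did not overlap.

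**Figure D1:**
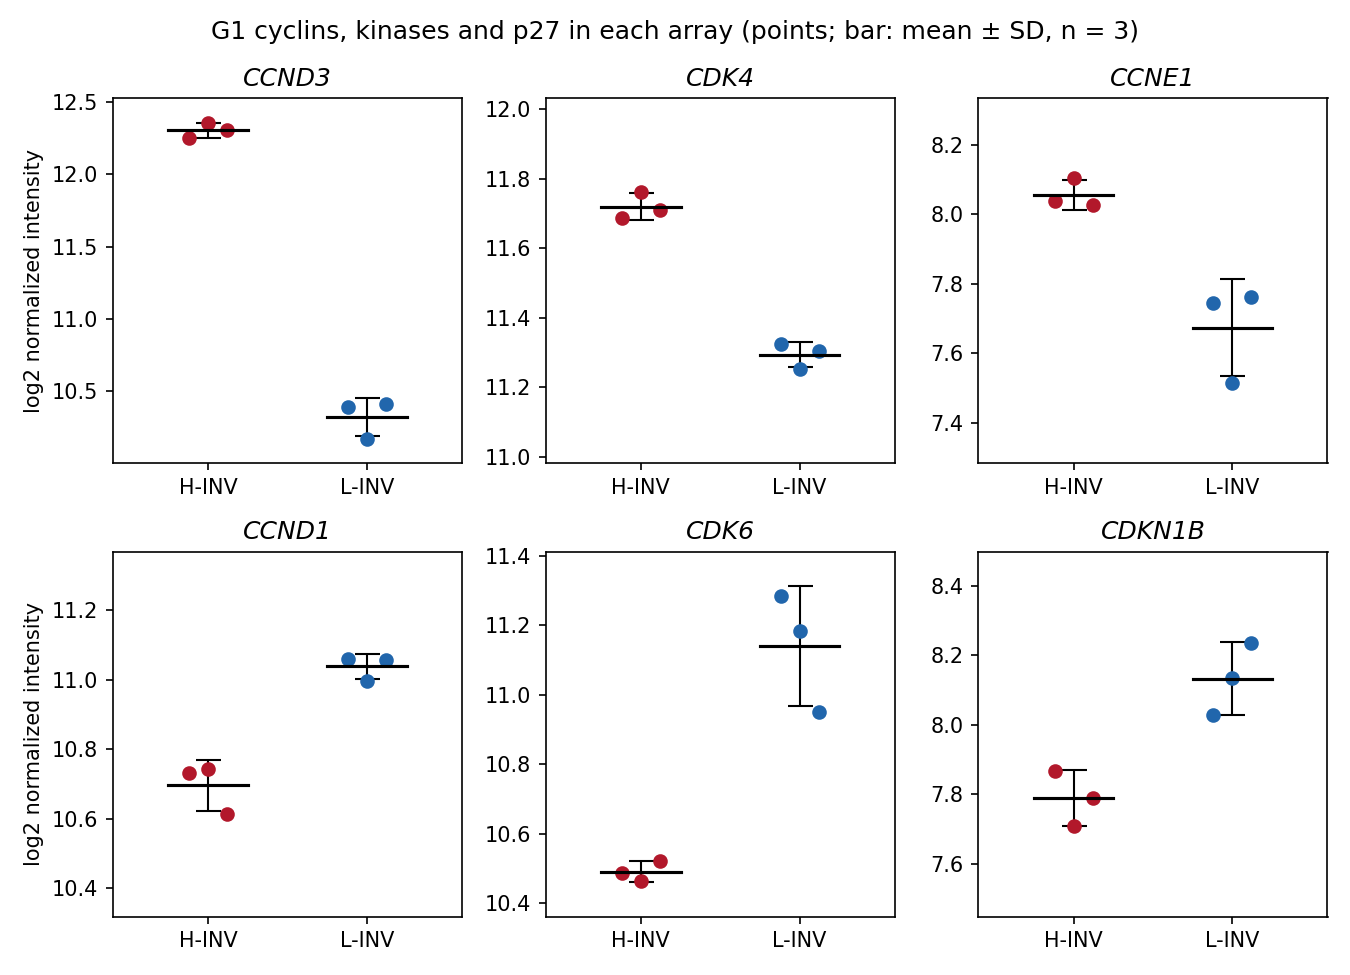
Log2 normalized intensity (vertical axes, each with its own range) of the 6 measured genes on the 3 H-INV and 3 L-INV arrays; points are arrays, long bars are means and whiskers are SD. CCND3, CDK4 and CCNE1 are higher on every H-INV array, and CCND1, CDK6 and CDKN1B are lower on every one.

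Of the inhibitors, p27 was measured and lower, and 2 others could not be detected. CDKN1B read 7.87, 7.71 and 7.79 in H-INV cells versus 8.03, 8.14 and 8.24 in L-INV cells, 1.27-fold lower (log2 fold change -0.34, SE 0.08, limma, adjusted p = 0.00572). Its 2 probes moved alike: the second read 7.41, 7.36 and 7.17 versus 7.69, 7.88 and 7.59, a log2 fold change of -0.41 (SE 0.10, limma over probes, adjusted p = 0.00816). Over all probes with a gene, 56.6% passed that test.

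The single probe of CDKN1C (p57), a maternally expressed imprinted gene, was above background on no array. Its detection p was 0.0299, 0.0636 and 0.109 in H-INV cells versus 0.447, 0.152 and 0.603 in L-INV cells. All 3 H-INV values lay closer to the threshold of 0.01, and none crossed it. Without the detection filter its log2 difference of 0.39 had an adjusted p of 0.0421 (limma), but no array of either group passed the detection threshold. The difference is therefore not read as a change. The 3 probes of CDKN2B (p15), which is induced by TGF-beta in many cells, had detection p values of 0.0584 to 0.995.

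CDKN2B stands beside CDKN2A on chromosome 9, a region lost in many tumours. None of the 3 probes of CDKN2A was above background on any array, while the probe of MTAP, a gene of the same locus, read 9.98, 10.12 and 9.98 in H-INV cells versus 9.77, 9.90 and 9.93 in L-INV cells. MTAP, which salvages adenine and methionine, was detected on every array, while the 2 inhibitor genes were not. Its log2 fold change of 0.16 did not pass (limma, adjusted p = 0.107). Elsewhere in the locus, DMRTA1 was above background on 1 L-INV array only, and IFNE on none with any of its 3 probes. Whether part of this region is lost in these cells was not tested. CDKN2A, MTAP, DMRTA1 and IFNE were added as neighbours with these values known.

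**Figure D2:**
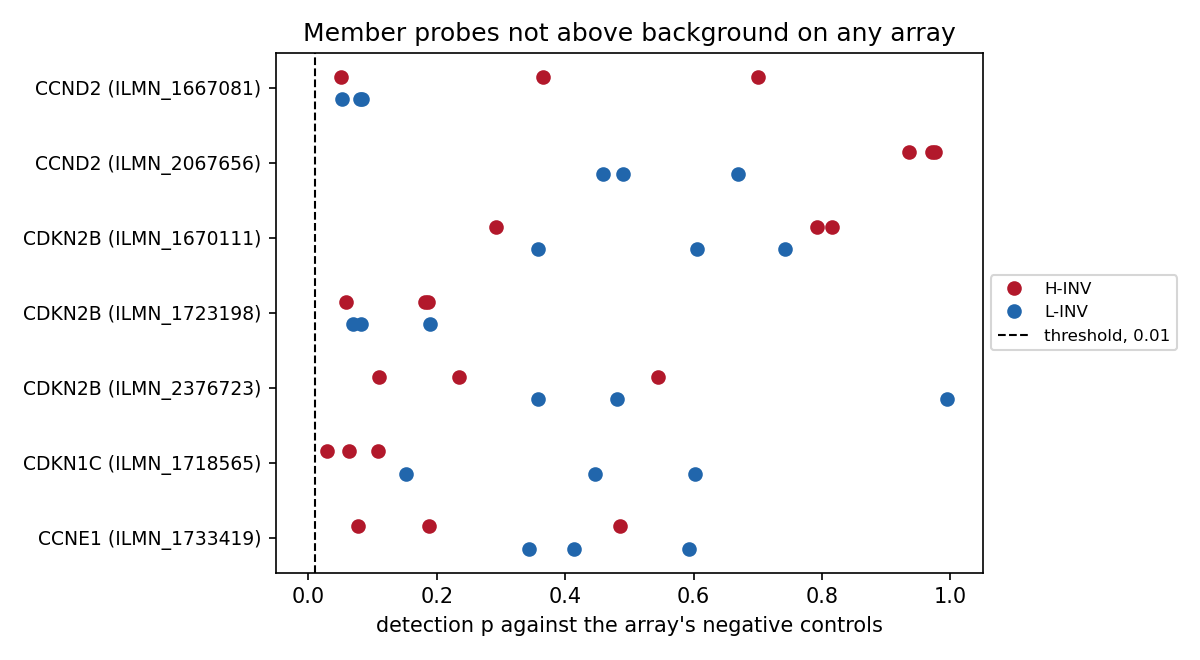
Detection p (horizontal axis) of the 7 member probes that were above background on no array, 3 H-INV points above 3 L-INV points for each probe; the dashed line is the threshold of 0.01. All points lie to the right of it, the nearest being CDKN1C in H-INV cells at 0.0299.

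All 6 measured genes passed the test at an adjusted p under 0.05, in a data set in which 58.0% of genes did. The 3 that rose stand beside 32.6% of all genes, and the 3 that fell beside 25.4%. The H-INV and L-INV arrays did not overlap for these 6 genes, nor for 64.5% of all genes tested. Past a 2-fold change there was CCND3 alone, against 10.2% of all genes. In size CCND3 stood at 1.98 and CDK6 at -0.65 on the log2 scale, and the other 4 lay between 0.34 and 0.43 in either direction, against a median standard error of 0.0824 over all genes. Of the measured D-type cyclins 1 rose and 1 fell, and so it was with the 2 kinases.

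**Figure D3:**
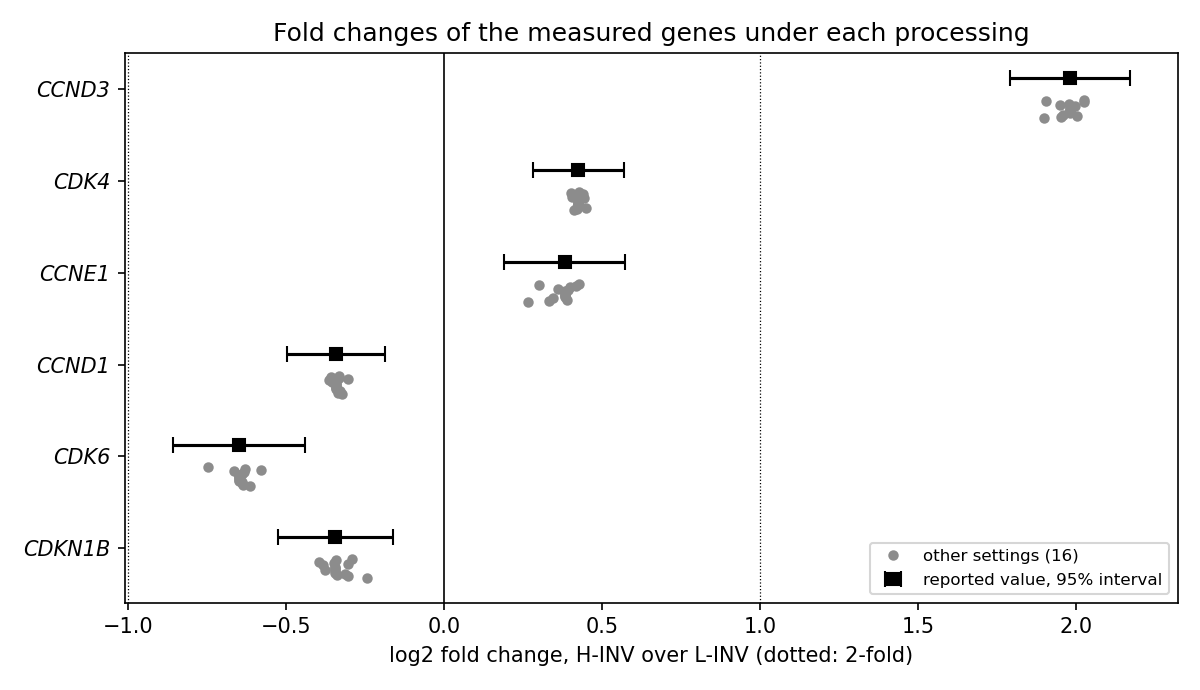
Log2 fold change, H-INV over L-INV (horizontal axis), of each measured gene as reported (squares, bars are 95% intervals) and under 16 other settings of the processing (grey points). CCND3 lies between 1.90 and 2.03 in all of them, CDK6 between -0.75 and -0.58, and no gene crosses 0. Settings that change only the test or the detection filter repeat the reported fold change.

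Other genes of the same step were read from 5 lists, which were written with results of these data known and are given as counts only. Of 14 further G1 cyclins, kinases and inhibitors, 11 were tested; 3 rose, 2 fell and 6 did not pass, with a median log2 fold change of -0.04 against 0.05 over all genes. CDC25A, the phosphatase that removes the inhibitory phosphates of CDK2, read 9.65, 9.58 and 9.48 in H-INV cells versus 8.25, 8.21 and 8.46 in L-INV cells (log2 fold change 1.26, adjusted p = 5.46e-06). CDK2 itself rose, with 10.84, 10.75 and 10.77 versus 10.17, 10.24 and 10.20 (0.59, adjusted p = 8.42e-05), and so did CCNH, the cyclin of the CDK-activating kinase (0.49, adjusted p = 0.00115). Its catalytic partner CDK7 and assembly factor MNAT1 did not pass, both at -0.09.

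Among the CIP/KIP and INK4 inhibitors of this list, CDKN1A and CDKN2D were tested and fell. CDKN1A (p21), a target of p53, read 10.69, 10.44 and 10.44 in H-INV cells versus 11.98, 11.93 and 11.92 in L-INV cells (log2 fold change -1.42, adjusted p = 2.05e-06). CDKN2D (p19), an INK4 inhibitor of CDK4 and CDK6, read 6.24, 6.40 and 6.15 versus 6.66, 6.81 and 6.78 (-0.49, adjusted p = 0.00113), and its change was -0.23 without background correction. The remaining genes gave 0.26 for CCNC, 0.17 for CDK2AP1, -0.23 for CDK2AP2 and -0.04 for CDK8, all short of the threshold by limma, although CCNC passed with its 2 other probes (0.27 and 0.29). Under 16 other settings CCNC passed in 7 and CDK2AP1, which binds CDK2 and holds it back, in 6, in each case as higher. CCNE2, CDKN2A and CDK11B had no probe past the filter.

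Downstream of the kinases, a list of 18 genes held the retinoblastoma family and E2F factors, with TFDP1, TFDP2, LIN9, LIN37, LIN52, LIN54 and RBBP4 beside them. Of these 18 genes 9 rose, 1 fell and 8 did not pass, beside 32.6% of all genes higher and 25.4% lower. Their median log2 fold change was 0.29. E2F2, an activating E2F, rose 1.43 on the log2 scale (9.67, 9.61 and 9.60 in H-INV cells versus 8.28, 8.11 and 8.19 in L-INV cells, adjusted p = 6.26e-07). The repressor E2F7 rose as well (0.65, adjusted p = 7.97e-05). E2F8, another repressor, was above background on the 3 H-INV arrays and on no L-INV array, at least 1.09-fold higher (adjusted p = 7.18e-05). The gene that fell was RBL2 (p130), the pocket protein of resting cells, with 9.04, 9.05 and 9.05 versus 9.77, 9.73 and 9.76 (-0.71, adjusted p = 1.92e-05). RB1 was at 0.21 (adjusted p = 0.0393), a call lost under 8 of 16 other settings, and E2F1 at -0.27 (adjusted p = 0.137). These last genes were picked with their values known.

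Of 22 tested genes that E2F factors are known to switch on before S phase, 20 rose and 0 fell, with a median log2 fold change of 0.56. Among all genes tested 32.6% rose and 25.4% fell. The largest rises were those of GINS2 (1.23), ORC1 (1.10), MCM4 (1.02) and MCM2 (1.01), parts of the machinery that licenses and unwinds replication origins. GINS2 read 10.77, 10.73 and 10.63 in H-INV cells versus 9.44, 9.44 and 9.56 in L-INV cells (adjusted p = 1.75e-06). ORC1 was at 0.60 without background correction. CDK1 (-0.13, adjusted p = 0.117) and MCM7 (-0.05, adjusted p = 0.618) were the 2 that did not pass by limma. At an unadjusted p under 0.05 by limma, 0 of the 22 genes fell either, but with the methods' one-way test CDK1 was called lower (adjusted p = 0.0192). The arrays measure RNA and not entry into S phase. By flow cytometry the paper found less BrdU incorporation in H460 H-INV than in L-INV cells. How these RNA levels relate to that rate was not tested.

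The factors that degrade G1 cyclins and CIP/KIP inhibitors gave 7 higher, 1 lower and 7 not passing of 15 tested, with a median of 0.16, beside 32.6% higher and 25.4% lower among all genes. FBXO31, an F-box protein that targets cyclin D1, rose 0.66 (8.38, 8.37 and 8.46 in H-INV cells versus 7.76, 7.73 and 7.75 in L-INV cells, adjusted p = 3.75e-05). UBAC1, a subunit of a ubiquitin ligase that acts on p27, rose 0.55 (adjusted p = 0.000439), and FBXW7, the receptor for cyclin E, 0.41 (adjusted p = 0.00199). SKP2, the F-box protein that marks p27 for destruction, rose 0.53 (adjusted p = 0.000329). Its 2 other probes differed, one at 0.75, which passed, and one at 0.07, which did not. CKS1B, the cofactor of SKP2, was the gene that fell, to 12.43 in H-INV cells against 12.72 in L-INV cells (log2 fold change -0.29, adjusted p = 0.00435). It was named after its value was seen. AMBRA1, CUL3, USP28 and USP2, the untested genes of this list, had no probe past the filter.

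Among 26 transcription factors known to act on these genes, 11 rose, 6 fell and 9 did not pass, with a median of 0.15. Over all genes the shares were 32.6% higher and 25.4% lower. KLF4, an activator of CDKN1A, fell most: 5.65, 5.78 and 5.74 in H-INV cells versus 9.24, 9.16 and 9.05 in L-INV cells, a log2 fold change of -3.43 (adjusted p = 5.97e-09). Its second probe gave -1.83, and without background correction the change was -2.12. FOXM1, an activator of cell cycle genes, rose 0.71 (adjusted p = 0.000138). MXD4 (-0.76, adjusted p = 0.000150) and MXD1 (-0.67, adjusted p = 0.00825), which compete with MYC for MAX at E-boxes, fell. MXD1 was above background on 1 of the 3 H-INV arrays, was at -0.24 without background correction, and lost its call in 1 of 15 other settings.

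MYC and MAX, the pair that binds the E-box found 3 times in the CDK4 window, were looked up after the other values were seen. MYC read 12.13, 12.33 and 12.28 in H-INV cells versus 12.12, 11.98 and 12.26 in L-INV cells. The arrays overlapped, and its log2 fold change of 0.12 did not pass (95% interval -0.08 to 0.33, limma, adjusted p = 0.272). MAX had 4 measured probes that disagreed. The brightest gave 0.42 (adjusted p = 0.00564), 2 others 0.49 and 0.54, and the fourth -0.65, each past the test.

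**Figure D4:**
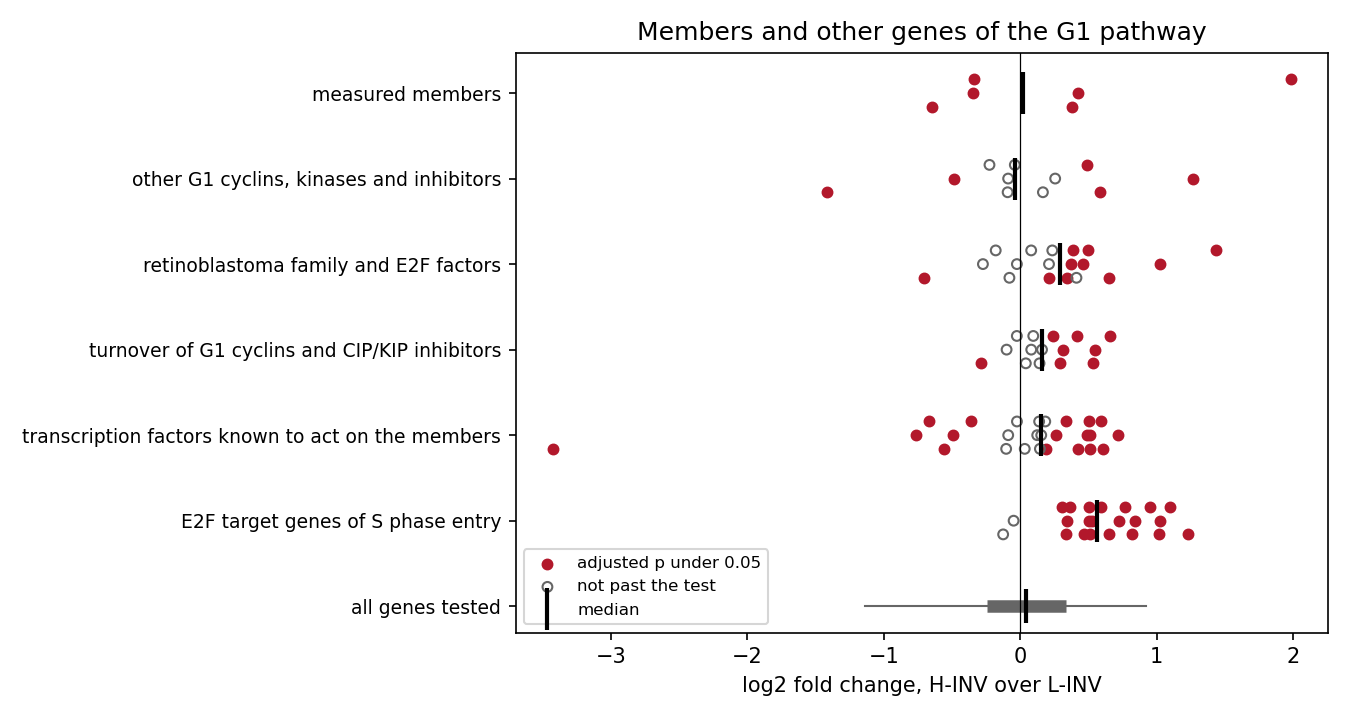
Log2 fold change, H-INV over L-INV (horizontal axis), of the measured members and of the 5 lists of pathway genes; red points passed an adjusted p of 0.05, open points did not, and black ticks are medians. For all genes tested, the thick bar runs between percentiles 25 and 75 and the thin bar between percentiles 5 and 95; the E2F targets are centred at 0.56 and all genes at 0.05.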

How the data were processed

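Gene expression was measured in 3 sets of H-INV and 3 sets of L-INV H460 cells on Illumina HT-12 v4 arrays. The authors extracted RNA with Trizol, labelled it with an Illumina kit and scanned the arrays on a HiScan system. In the deposited scanner table, intensity is linear and neither background-subtracted nor normalized, and a deposited detection p-value sets each probe against the array's negative controls. In GenomeStudio the authors also made a second table, of intensity corrected for background and quantile-normalized. GenomeStudio and Partek are named in the submitters' processing notes without versions.

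Scanner intensity went through normexp in limma 3.58.1 (R 4.3.3), with the controls' mean and spread estimated by way of the detection p-values and an offset of 16, then quantile normalization and log2. Kept were 16941 probes, 13531 of them with a gene, whose detection p was under 0.01 on 3 or more of 6 arrays. The brightest probe stood for each of 10279 genes. H-INV was compared with L-INV by two-sided tests with lmFit and eBayes, p-values being adjusted over all genes (Benjamini-Hochberg), with calls at an adjusted p under 0.05. Every test was fitted over the whole table. The number of arrays limits the precision. Genes above background on no array of a group have only a bound there.

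The members and lists were chosen with earlier results of these data known. Named genes are the 10 members, up to 4 called genes of the largest change per list, every gene of the list of other G1 regulators, and neighbours past a 2-fold change, at most 3 per member. Where the text says so, a gene was picked with its values known. Marker lists served only to check the arrays. The tests were checked on simulated data. Positions of probes within transcripts, and the promoters of CCND1, CCND2 and CDKN1C, were not used here.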

Additional observations from a re-analysis of the deposited data

How the results depend on the processing

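The 6 measured members kept their direction and their call in all 96 combinations of gene and setting: a larger offset (50) or raw background, scaling to percentile 75, the authors' table, a detection filter dropped or asked of all 6 arrays, averaged probes, the methods' one-way test, a prior with trend, the replicate block, and each array left out. The detection filters, the one-way test, the prior with trend and the replicate block left each fold change unchanged and bore only on the p-value. Averaging probes could move the fold change of CDKN1B alone, the only member with more than 1 tested probe. CCND1 lay between -0.37 and -0.30, CDK4 between 0.40 and 0.45, CDKN1B between -0.40 and -0.25 and CCNE1 between 0.27 and 0.43 on the log2 scale, with adjusted p-values of at most 0.0256. With a fold change above 2 required as well, 1053 genes were called, 1 member was higher and 0 members were lower, although 3 fell at the adjusted p alone by limma. Past both thresholds there were 467 genes with raw background, 691 with the larger offset and 639 when all 6 arrays had to detect a probe. Without a detection filter, probes below background were tested as well, and 28.5% of 20045 genes passed the adjusted p. The reason for the lower share was not tested.

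Of 668 values of the 42 other named genes, 641 kept their call, 10 lost it, 15 gained one and 2 turned their direction. Both turned genes were uncalled throughout with an array left out: CDK8 ranged from -0.12 to 0.011 and MCM7 from -0.10 to 0.012, positive only without L-INV replicate 1; the cause was not tested. E2F8, MXD1, MYEOV and DTX3 gave no value with the filter on all 6 arrays. Replicate numbers are shared by both groups, and deviations of same-numbered arrays correlated at -0.07, -0.02 and -0.09. These values show no effect shared by same-numbered arrays, but cannot tell whether the sets were prepared as pairs. A fit with the replicate block called 5647 genes and left the calls of all 6 members in place, while E2F1 was called lower under it (-0.27, adjusted p = 0.0254). Low signal limits CCND2, CDKN1C and CDKN2B, whose probes lay at background.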

Other observations

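The tested genes that lie nearest the members on their chromosomes, 5 on either side in the GRCh38.p14 gene table, were read from the same fit as a description. Of 100 such neighbours, 26 were higher in H-INV cells, 22 were lower and 52 did not pass, where 32.6% of all genes rose and 25.4% fell. Around CCND3, on chromosome 6, 2 neighbours rose, 1 fell and 7 did not pass, and their log2 fold changes lay between -0.28 and 0.54 beside 1.98 for CCND3 itself. Around CDK6, on chromosome 7, the 10 neighbours lay between -0.61 and 0.69.

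A change above 2-fold was found for 8 neighbours. No limit of distance was set, so a neighbour need not be adjacent. Places below count tested genes from the member, with a minus sign for those before it. Around CCND1, which fell, CPT1A (place -5), the gatekeeper of fatty acid import into mitochondria, had a mean of 7.10 on H-INV arrays, against 5.90 on L-INV arrays (log2 fold change 1.20, limma, adjusted p = 1.59e-05). Its other probe gave 0.11 and did not pass. MYEOV, often amplified together with CCND1 in tumours, was at 6.44 on H-INV and 5.36 on L-INV arrays (1.09, adjusted p = 0.000420), above background on 1 of the 3 L-INV arrays. Near CDK4, DTX3, a ubiquitin ligase, was above background on no H-INV array and on 3 L-INV arrays, at least 1.34-fold lower. HEBP1, a heme-binding protein, lay near CDKN1B and rose 1.18. Near the undetected CDKN1C, the transporter SLC67A1 was at 5.98 on H-INV and 7.66 on L-INV arrays (-1.68) and OSBPL5, a lipid transfer protein, at 6.69 on H-INV and 8.18 on L-INV arrays (-1.49). Around the undetected CDKN2B, FOCAD (-1.13, place -4) and C9orf72 (-1.16, place 5) fell. Without background correction the log2 fold change was 0.57 for CPT1A, 0.40 for MYEOV, -0.88 for SLC67A1, -0.94 for OSBPL5 and -0.62 for C9orf72.

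Among the marker genes, KRT19, a keratin of simple epithelia, had a mean of 8.38 on H-INV arrays, against 12.50 on L-INV arrays. The other keratins among the markers differed less. KRT8 was at -0.30 on the log2 scale (limma, adjusted p = 0.00295), and KRT18 at -0.27, which did not pass (adjusted p = 0.0624).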
